A study of Mus musculus with 12 samples.

Results

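Endothelial marker genes and angiogenic factors were followed in the pituitary gland of the pregnant mouse. The set held 39 genes, listed by name with earlier results of these data known: 20 markers of blood vessel endothelium, 11 growth factor genes and 8 other angiogenic genes (receptors, an ephrin ligand and its receptor, hypoxia-inducible factors and an inhibitor). Their 74 probes stood among 45281 on the array. A probe was kept when its signal was above the negative controls (detection p under 0.05) on 4 or more of the 12 arrays. That filter passed 37 probes of 30 of these genes, out of 18626 probes and 10802 named genes in all. The arrays compared 8 pregnant females, killed at e15.5 of gestation after mating with c57BL6/J studs, with 4 non-pregnant (virgin) females. All were c57BL6/J females, aged 8 weeks when allocated to their group (a legend of the study gives 3 months when the glands were taken), with no other allele or agent. Each whole gland, anterior and posterior lobes together, gave 1 array (MouseWG-6 v2.0 bead array, total RNA). The methods draw the females of both groups from 4 litters, and the study calls the groups littermates, so some of the 12 animals share a litter. No source at hand says which litter each came from, so litter could not enter a fit, and p-values treat the animals as independent.

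The endocrine cells of the pituitary release their hormones into a dense bed of fenestrated capillaries, which are fed by the portal vessels from the hypothalamus. Endothelial cells hold together through cadherin and claudin junctions and carry receptor tyrosine kinases for VEGFs and angiopoietins. VEGF-A is the main signal for blood vessel growth and permeability, VEGF-C and VEGF-D signal through VEGFR-3 and are best known for lymphatic vessels, and hypoxia-inducible factors raise VEGF-A when oxygen is low.

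Of the 30 measured genes, 1 was called lower in pregnant pituitaries, the VEGF-D gene Vegfd, and 0 were called higher (limma, adjusted p under 0.05 over all kept probes). Over all named genes 1.56% were called lower and 1.51% higher, and 2.31% of all kept probes were called in either direction, so the members' counts lie near the background. At an unadjusted p under 0.05, limma gave 3 of the 37 probes (Vegfd, Fgf1 and Tek, all with negative changes), or 8.11%, against 17% of all kept probes. The median log2 change, pregnant minus non-pregnant, was -0.03 over the 30 genes and -0.01 over all named genes. For 23 of the 30 the 95% interval of the change lay within 1.5-fold in either direction. The gland is a mixture, and fewer cells of a type cannot be told apart from less RNA per cell.

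**Figure D1:**
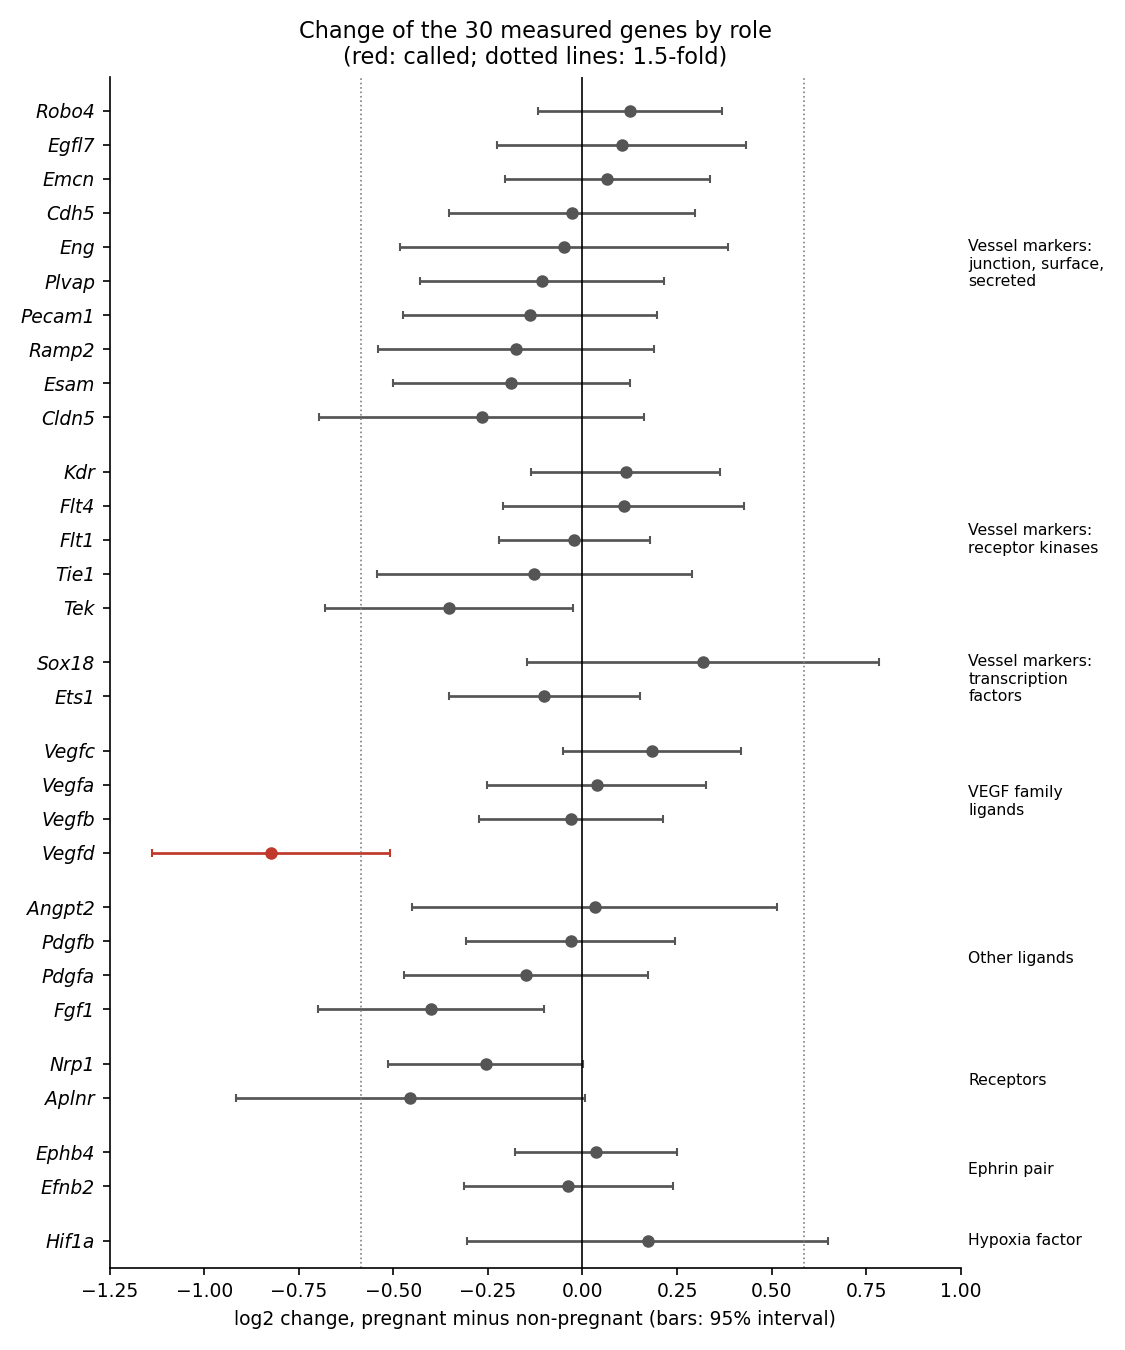
Log2 change (x axis, pregnant minus non-pregnant) of each of the 30 measured genes, by role from top to bottom, with 95% intervals from limma, 8 pregnant and 4 non-pregnant arrays. The called gene, Vegfd, is red at -0.82, and the 17 vessel markers lie between -0.35 and 0.32, all with grey, uncalled points.

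Arrays were alike in the number of probes detected, 17217 to 18572 on each. Before normalisation the raw medians of the groups did not overlap, at 151.1 to 179.6 on pregnant and 144.8 to 147.6 on non-pregnant arrays. On the first principal component non-pregnant replicate 4 lay at 0.25, away from -32.8 to -21.3 for the rest of its group. That value is inside the range of the pregnant arrays, -7.29 to 20.6. The changes of Vegfd, Kdr, Pdgfa and Hif1a are also given without non-pregnant replicate 4. Red cell markers differed between the groups, with 5 of 5 measured genes higher in pregnant glands (median log2 change 1.61). Their level, a mean over genes as defined below, ran from 0.14 to 1.44 on pregnant arrays and from -1.51 to -1.09 on non-pregnant arrays. Among the vessel markers, Pecam1, Cdh5, Emcn, Plvap and Tek were detected on all 12 arrays, so endothelial RNA was read. Sox17 and Erg were detected on 0 arrays, and Vwf on 0 pregnant and 3 non-pregnant arrays. The VEGFR-2 gene Kdr was near the limit, detected on 4 pregnant and 2 non-pregnant arrays.

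Among junction, surface and secreted vessel markers, 10 of 11 genes were measured and 0 were called in either direction. Log2 changes ran from -0.27 to 0.13 by the brightest probe of each gene, and from -0.32 to 0.32 over all their kept probes. Cdh5 encodes VE-cadherin, the adhesion molecule of endothelial junctions. It had a lowest, median and highest log2 intensity of 8.27, 8.73 and 8.92 on pregnant arrays, and 8.30 to 9.17 on non-pregnant arrays, so the groups overlapped over most of their range. Its log2 change was -0.03 ± 0.15 (SE). Plvap forms the diaphragms of fenestrated capillaries. It read 11.22, 11.60 and 11.83 on pregnant arrays, and 11.29 to 12.06 on non-pregnant arrays, with a change of -0.11 ± 0.15. Emcn, an endothelial sialomucin, changed by 0.07 ± 0.13, and Pecam1, an adhesion molecule of endothelium that platelets and leukocytes also carry, by -0.14 ± 0.16. The second probe of Pecam1 gave -0.32 (adjusted p = 0.306), also not called.

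The remaining genes of this group were not called either. The claudin of endothelial tight junctions, Cldn5, was at -0.27 ± 0.20, with the widest non-pregnant spread of these genes (6.53 to 7.86, against 6.39 to 7.09 on pregnant arrays). Esam, an adhesion molecule of the same junctions, was at -0.19 ± 0.15. Both values rested on non-pregnant replicate 2, and without it they were -0.0054 for Cldn5 and 0.0076 for Esam. Ramp2, a partner of the adrenomedullin receptor, was at -0.18 ± 0.17, and at -0.07 without pregnant replicate 1. Eng (endoglin, a TGF-beta co-receptor) was at -0.05 ± 0.20, Robo4, a roundabout receptor of endothelium, at 0.13 ± 0.11, and Egfl7, which endothelial cells secrete, at 0.10 ± 0.15. The second probe of Egfl7 gave 0.32 (adjusted p = 0.361, limma), also not called. The smallest adjusted p among these 10 genes was 0.306 over all their probes and 0.540 over the brightest probe of each. The blood-clotting factor gene Vwf did not pass the filter: it was detected on 0 pregnant and 3 non-pregnant arrays.

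Among the receptor tyrosine kinases of endothelium, 0 of 5 were called. Tek encodes TIE2, the receptor for angiopoietins. It read 8.21, 8.57, 8.27, 8.93, 8.50, 9.09, 8.69 and 8.74 on pregnant replicates 1 to 8, and 8.86, 9.23, 8.83 and 8.99 on non-pregnant replicates 1 to 4. Most pregnant arrays lay below the non-pregnant ones, but pregnant replicates 4 and 6 fell within their range. The means were 8.63 ± 0.30 in pregnant and 8.98 ± 0.18 in non-pregnant glands (SD, n = 8 and 4), a log2 change of -0.35 ± 0.15 (SE). It did not pass, with an adjusted p of 0.253 by limma, and an exact permutation test of that single value gave p = 0.0566, two-sided.

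The 3 VEGF receptor genes had changes near zero. Flt1 (VEGFR-1) had the smallest error of all 30 genes, at -0.02 ± 0.09, and its interval allows 0.858-fold to 1.13-fold. Kdr was at 0.11 ± 0.12 (0.18 without non-pregnant replicate 4) and Flt4 (VEGFR-3, the receptor of VEGF-C and VEGF-D) at 0.11 ± 0.15, where Flt4 was detected on 8 pregnant and 3 non-pregnant arrays. Tie1, the orphan relative of TIE2, was at -0.13 ± 0.20.

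Of the 4 endothelial transcription factors, Sox18 and Ets1 were measured, while Sox17 and Erg were detected on 0 of 12 arrays. Sox18, a SOX factor of blood and lymphatic endothelium, had the highest change of all 30 genes, 0.32 ± 0.22, and did not pass (adjusted p = 0.494). Without non-pregnant replicate 2 it was at 0.50 (adjusted p = 0.311). Its arrays overlapped over most of their range, at 6.94, 7.65 and 7.96 (lowest, median and highest) in pregnant glands, and 6.84 to 7.74 in non-pregnant glands. Ets1 was at -0.10 ± 0.12.

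Growth factor genes were then set beside the vessel markers. Of 11, 8 were measured, and 1 was called, Vegfd. VEGF-D is a secreted ligand of VEGFR-3, and its gene was first known as Figf, for c-fos induced growth factor. Normalised log2 intensity was 9.29, 9.26, 9.45, 9.35, 9.36, 9.03, 8.98 and 8.98 on pregnant replicates 1 to 8, and 10.18, 10.38, 10.07 and 9.52 on non-pregnant replicates 1 to 4. All 8 pregnant arrays lay below all 4 non-pregnant arrays, by a narrow margin at non-pregnant replicate 4. The means were 9.21 ± 0.19 in pregnant glands and 10.04 ± 0.37 in non-pregnant glands (SD, n = 8 and 4). The log2 change was -0.82 ± 0.15 (SE), or 1.77-fold lower in pregnant glands, with a 95% interval of 0.455-fold to 0.702-fold. The adjusted p was 0.00846 by limma, and the exact permutation test over all splits of the arrays gave p = 0.00404, two-sided, the smallest it can give. Over the array, 2.95% of kept probes had groups that did not overlap.

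The array that stood apart from its group made the Vegfd change smaller. Without non-pregnant replicate 4 the log2 change was -0.997 (adjusted p = 0.00128, limma), against -0.82 with it. Leaving out each array in turn gave -0.997 to -0.71, and Vegfd was called in 12 of 12 of these fits. The adjusted p came close to the threshold without non-pregnant replicate 1 (0.0421), 2 (0.0309) or 3 (0.0397, limma). With the replicate number as a block Vegfd was at -0.70 and not called (adjusted p = 0.128, limma), a fit described in the last section. In raw scanner signal, before any correction, the groups overlapped, at 616.1 to 876.7 on pregnant arrays and 781 to 1378.2 on non-pregnant arrays, where only replicate 4 was below the highest pregnant array. A log2 change of -0.55 from raw signal, a check added after the data were seen, also passed (adjusted p = 0.00958, limma). The array carries a single Vegfd probe, so no second probe checks the value.

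**Figure D2:**
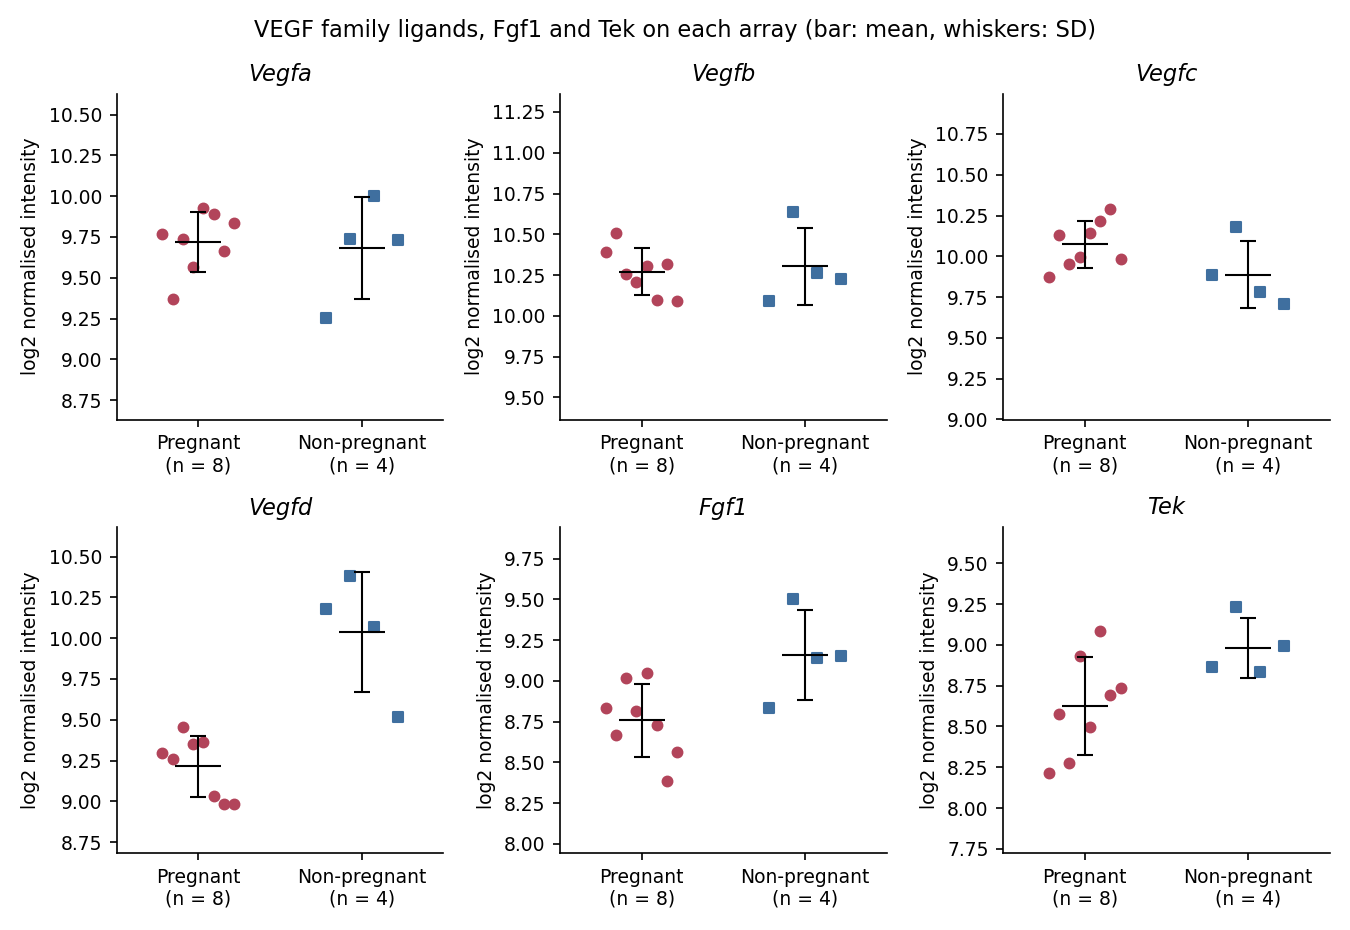
Normalised log2 intensity (y axis, each panel spanning 2 log2 units) of the measured VEGF family ligands, Fgf1 and Tek on each array, pregnant (circles, n = 8) left of non-pregnant (squares, n = 4), with mean and SD. Only in the Vegfd panel are the groups apart, 8.98 to 9.45 in pregnant and 9.52 to 10.38 in non-pregnant glands.

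The other measured VEGF ligands were not called. Vegfa read 9.37, 9.75 and 9.93 (lowest, median, highest) on pregnant arrays, and 9.26 to 10.00 on non-pregnant arrays, a change of 0.04 ± 0.14 whose interval spans 0.840-fold to 1.26-fold. Its second probe gave -0.06. Vegfb, a VEGFR-1 ligand, read 10.09, 10.28 and 10.51 on pregnant arrays, and 10.09 to 10.64 on non-pregnant arrays, a change of -0.03 ± 0.11. Vegfc, the nearest relative of Vegfd, read 9.87, 10.06 and 10.29 on pregnant arrays, and 9.71 to 10.18 on non-pregnant arrays, a change of 0.18 ± 0.11 (adjusted p = 0.424).

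The difference between the Vegfd change and each of these was tested within arrays, a test chosen because Vegfd had been called, which is thus no independent evidence of that call. The log2 change of Vegfd was lower by 0.861 than that of Vegfa (exact permutation p = 0.00808), by 0.793 than that of Vegfb (exact p = 0.00404) and by 1.01 than that of Vegfc (exact p = 0.00404), with 8 pregnant and 4 non-pregnant arrays. Adjusted over the 3 pairs, these exact p-values were 0.00808, 0.00606 and 0.00606. The remaining VEGF ligand, the placental growth factor gene Pgf, was detected on 0 of 12 arrays.

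The promoter windows of Vegfd and Vegfc are shown as those of the called gene and of its nearest relative, which was not called. Both are from RefSeq (GRCm38.p6), 250 bases before to 50 after the start of the gene, plus strand, 5′ to 3′, at chrX:164373272-164373571 and chr8:54077282-54077581. Capitals mark every match to the motifs searched on both strands: the AP-1 site TGANTCA, the TATA box TATAAA, the GC box GGGCGG, and the hypoxia response cores ACGTG and GCGTG.
Vegfd: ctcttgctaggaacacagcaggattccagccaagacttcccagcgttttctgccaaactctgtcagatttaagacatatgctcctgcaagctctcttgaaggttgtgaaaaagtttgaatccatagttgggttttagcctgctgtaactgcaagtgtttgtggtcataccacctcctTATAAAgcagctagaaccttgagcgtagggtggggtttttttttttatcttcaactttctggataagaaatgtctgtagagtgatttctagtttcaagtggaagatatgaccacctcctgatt
Vegfc: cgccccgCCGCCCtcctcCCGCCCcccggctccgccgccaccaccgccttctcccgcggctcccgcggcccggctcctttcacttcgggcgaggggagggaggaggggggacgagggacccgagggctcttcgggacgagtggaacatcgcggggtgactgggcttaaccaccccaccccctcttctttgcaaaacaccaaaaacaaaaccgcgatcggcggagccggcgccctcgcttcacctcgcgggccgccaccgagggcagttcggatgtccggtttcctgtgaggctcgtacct

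The windows differ in make-up. The Vegfd window holds 42% G and C and 2 CG pairs, with 1 TATA box that begins 73 bases before the start site and no GC box. The Vegfc window holds 70.3% G and C and 35 CG pairs, with 2 GC boxes on the minus strand and no TATA box. Of all 32851 windows, 13.6% hold the TATA motif and 35.7% the GC box, and the median window has 52.7% G and C and 7 CG pairs. Windows were found for 19 of the 30 measured genes (23 windows). The TATA motif is in those of 3 genes (Vegfd, Flt1 and Efnb2) and the GC box in those of 12. A hypoxia core is in those of 9, Vegfa and Hif1a included. Of the 23 windows, 13% hold the TATA motif, 60.9% the GC box and 39.1% a hypoxia core, the last against 43.8% of all windows. The AP-1 letters were in 0 of the 23 windows and in 7.81% of all windows. A match describes these letters only.

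Of 6 genes of the AP-1 transcription factor family, a list added after the data were seen because the older name of Vegfd refers to c-fos, 2 were called lower. Fosb changed by -2.32 (adjusted p = 0.0206) and Junb by -1.70 (adjusted p = 0.0146). The c-fos gene Fos itself was at -1.69 ± 0.82 and did not pass (adjusted p = 0.309). The list's level was -0.67 to 0.30 on pregnant arrays and 0.11 to 1.31 on non-pregnant arrays. Its part in the Vegfd change was not tested, nor was that of the red cell markers.

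The growth factors outside the VEGF family were not called. Fgf1 encodes acidic fibroblast growth factor. It read 8.83, 8.67, 9.02, 8.82, 9.05, 8.73, 8.38 and 8.56 on pregnant replicates 1 to 8, and 8.83, 9.50, 9.14 and 9.15 on non-pregnant replicates 1 to 4. Pregnant arrays were lower on the whole, with non-pregnant replicate 1 inside their range. The means were 8.76 ± 0.22 in pregnant and 9.16 ± 0.27 in non-pregnant glands (SD, n = 8 and 4), a log2 change of -0.40 ± 0.14 (SE). The adjusted p was 0.151 (limma), and the exact permutation p of the single value was 0.0202, two-sided. Without non-pregnant replicate 2, the highest array, the change was -0.29 (adjusted p = 0.376).

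Angpt2, the context-dependent TIE2 ligand released by endothelium, varied widely within each group. It read 9.19, 9.68 and 10.38 (lowest, median, highest) on pregnant arrays, and 9.14 to 10.30 on non-pregnant arrays, a change of 0.03 ± 0.23 whose interval reaches 0.732-fold to 1.43-fold. The PDGF ligand genes Pdgfa and Pdgfb, of which PDGF-B draws pericytes to new vessels, were at -0.15 ± 0.15 and -0.03 ± 0.13. Pdgfa was at -0.23 without non-pregnant replicate 4, its lowest non-pregnant array (adjusted p = 0.430). Fgf2 and the apelin gene Apln were detected on 0 of 12 arrays.

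Of the other angiogenic genes, 5 of 8 were measured and 0 were called. The neuropilin gene Nrp1, a co-receptor for VEGF-A and semaphorins, was measured by 3 probes that gave -0.26, -0.24 and -0.30. On the brightest it read 9.98, 10.10 and 10.49 (lowest, median, highest) on pregnant arrays, and 10.33 to 10.65 on non-pregnant arrays (adjusted p = 0.300). The apelin receptor gene Aplnr was at -0.46 ± 0.22 (adjusted p = 0.301), with non-pregnant replicate 2 the highest array at 8.20, and at -0.24 without that array (adjusted p = 0.653). The arterial ephrin Efnb2 and its venous receptor Ephb4 were at -0.04 ± 0.13 and 0.04 ± 0.10, and both intervals lay within 1.5-fold.

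Hif1a, the oxygen-regulated subunit of HIF-1, depended on a single array. It read 8.02, 8.37 and 8.61 (lowest, median, highest) on pregnant arrays, and 7.62 to 8.01 on non-pregnant replicates 1 to 3, but 9.18 on non-pregnant replicate 4. The log2 change was 0.17 ± 0.22 with all arrays (adjusted p = 0.751) and 0.51 without non-pregnant replicate 4 (adjusted p = 0.0504), still not called. Its relative Epas1 (HIF-2 alpha) was detected on 1 array, and the co-receptor gene Nrp2 and the angiogenesis inhibitor gene Thbs1 on 0. Of 13 measured hypoxia target genes, 0 were called, with a median of 0.01.

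Vessel markers and growth factors were also set side by side array by array. The level of a list on an array was the mean, over its genes, of the deviation from each gene's mean over 12 arrays. The vessel markers ran from -0.41 to 0.18 on pregnant arrays and from -0.17 to 0.30 on non-pregnant arrays. The ranges overlapped, with pregnant replicate 1 below every non-pregnant array and non-pregnant replicate 2 above every pregnant array. The growth factors ran from -0.10 to 0.08 on pregnant arrays and from -0.08 to 0.40 on non-pregnant arrays. By gene, the median log2 change was -0.05 over 17 vessel markers (11 below zero, 6 above) and -0.03 over 8 growth factors (5 below, 3 above). Neither sign is settled. Without non-pregnant replicate 2 the median was 0.01 for vessel markers (7 below zero, 10 above) and 0.07 for growth factors (3 below, 5 above), and with array weights it was 0.06 for vessel markers.

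**Figure D3:**
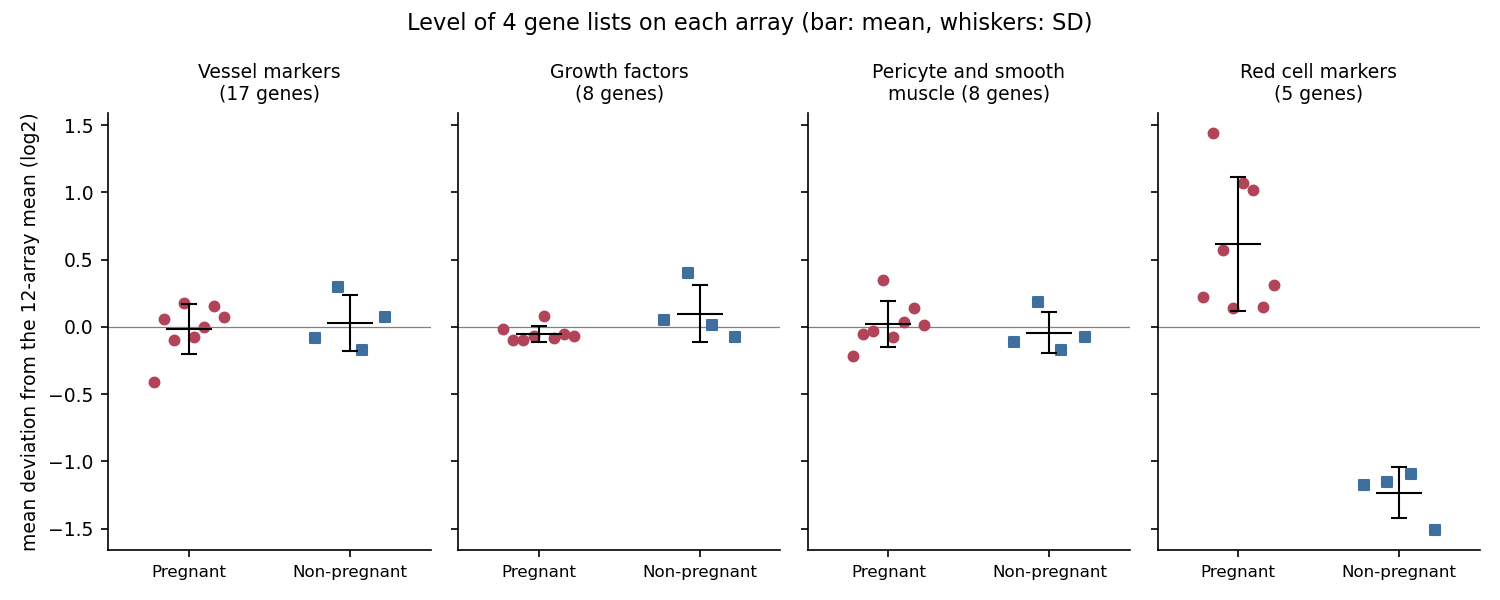
Mean log2 deviation from the 12-array mean (y axis) of vessel markers, growth factors, pericyte and smooth muscle markers, and red cell markers on each array, pregnant (circles, n = 8) left of non-pregnant (squares, n = 4), with mean and SD. Red cell markers are apart, at 0.14 to 1.44 in pregnant and -1.51 to -1.09 in non-pregnant glands, while the other lists overlap.

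On some arrays most vessel markers lay to the same side of their 12-array mean. On pregnant replicate 1, 17 of 17 lay below it and 11 had their lowest value, where 51.3% of all named genes lay below their mean and 8.11% had their lowest value. On pregnant replicate 4, 16 of 17 lay above it, against 49.2% of all named genes. On non-pregnant replicate 2, 14 of 17 lay above it and 9 had their highest value, against 54.7% and 14.2% of all named genes. Other arrays were mixed, such as pregnant replicate 5 with 10 below and 7 above. No test was made of this pattern. The 21 measured genes of another endothelial list had 16 below the mean and 10 at their lowest on pregnant replicate 1. They did not follow on the other arrays named, with 11 above and 10 below on pregnant replicate 4, and 12 above and 4 at their highest on non-pregnant replicate 2. Without pregnant replicate 1 the vessel marker median was -0.0036, with 9 genes below and 8 above zero.

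**Figure D4:**
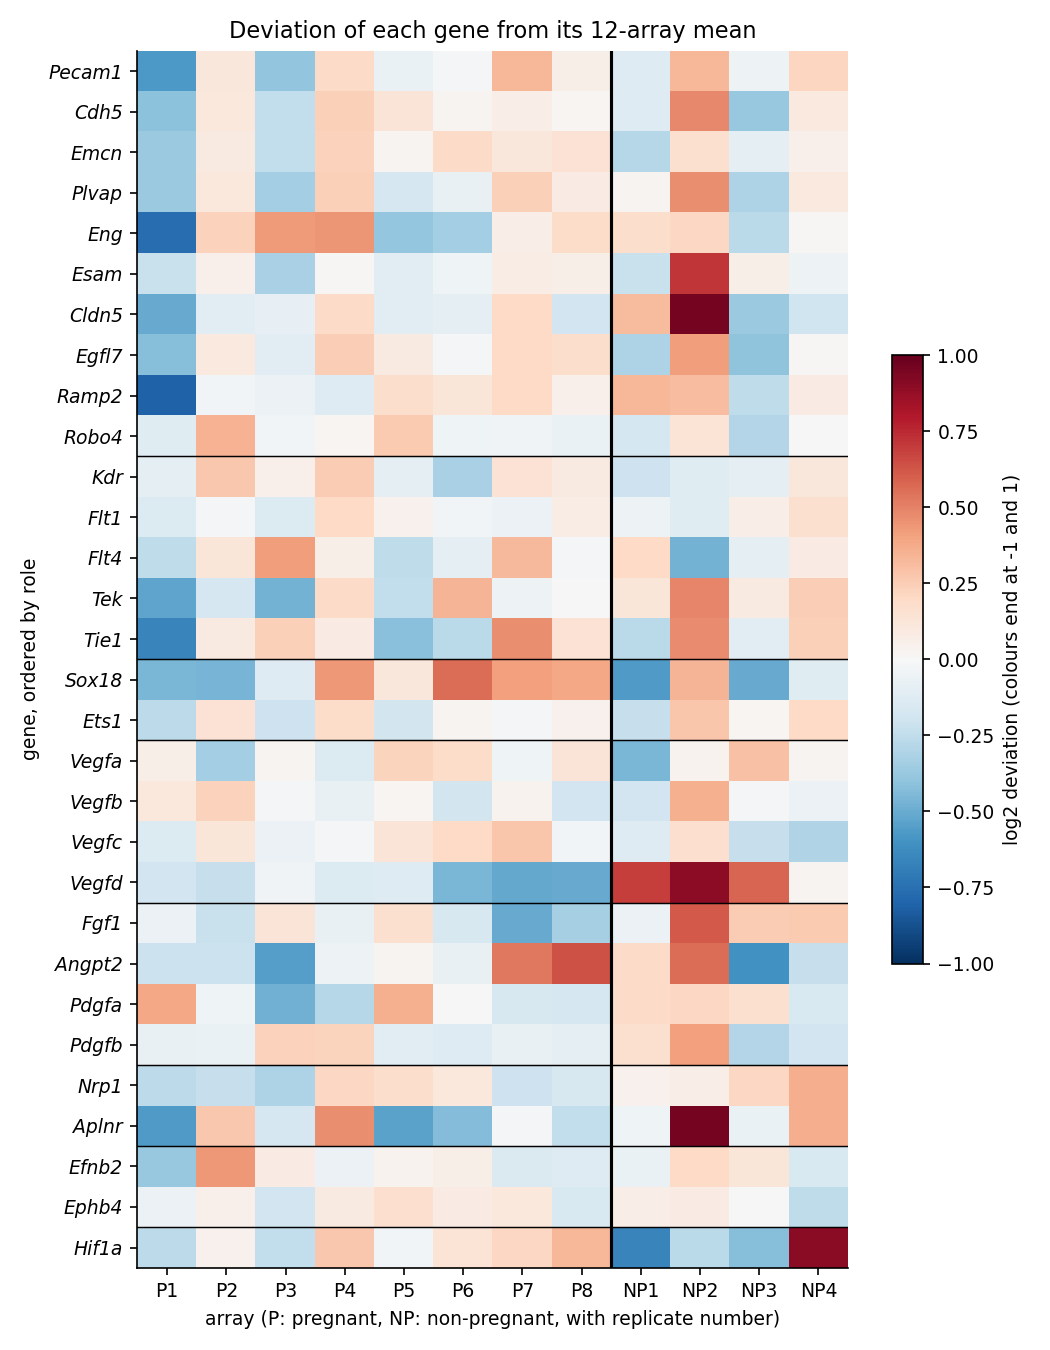
Log2 deviation of each of the 30 measured genes (rows, by role) from its own 12-array mean on each array (columns, pregnant left of non-pregnant). Pregnant replicate 1 is blue in 17 of 17 vessel markers, non-pregnant replicate 2 is mostly red, and Vegfd is the row with the plainest step between the groups.

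Genes around these pathways were read from lists of known members. Of 37 pathway partners (other ligands, receptors and enzymes), 23 were measured and 0 called, with a median of -0.05. Angpt1, the TIE2 agonist that pericytes make, was at -0.41 (adjusted p = 0.263), and the PDGF-B receptor gene Pdgfrb at 0.01 (adjusted p = 0.977). Of 32 other endothelial genes, 21 were measured and 0 called, with a median of -0.06. An unadjusted p under 0.05 (limma) was found for 6 of their 26 probes, or 23.1%, against 17% of all kept probes. The groups did not overlap for 1 of the 21, Mmrn2, where 2.95% of all kept probes had groups that did not overlap. Mmrn2, a matrix protein of endothelium, read 8.64 to 8.93 on pregnant arrays and 8.94 to 9.26 on non-pregnant arrays. Its change of -0.33 did not pass (adjusted p = 0.0828, limma), and 1 such gene is no result about the list.

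Markers of neighbouring cells were read in the same fit. Of 13 pericyte and smooth muscle markers, 8 were measured and 0 called. Of 5 fibroblast and 2 lymphatic markers measured, 0 were called. Of 5 leukocyte markers measured, 1 was higher, Cd79b, a signalling chain of the B cell receptor (0.78, adjusted p = 0.00293). The other 4 had changes below zero and were not called. Of 7 hormone genes measured, 1 was lower, Lhb (-0.91, adjusted p = 0.000513), the luteinising hormone beta subunit of gonadotrophs. The hormone genes were not all flat otherwise, with log2 changes from -0.91 to 1.61. Of their 7 probes, 4 had an unadjusted p under 0.05 (limma), or 57.1%, against 17% of all kept probes. Platelet and posterior lobe glia markers, 2 measured of each, had 0 called.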

How the data were processed

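Total RNA of 12 whole pituitaries was hybridised to bead arrays. The authors deposited a non-normalised table of linear signal intensity for each probe and array, with the scanner's detection p-value beside it. The authors also deposited processed intensities (made with lumi, no version stated), used only as an alternative. From the raw intensities, background was corrected with normexp in limma 3.58.1 (R 4.3.3; negative controls inferred from detection p-values, offset 16), followed by quantile normalisation and log2. Symbols came from the platform annotation, brought up to date with gene IDs in RefSeq's GRCm38.p6 table (34807 of 34885 single-gene probes matched, 18 probes had several symbols and 10378 none). Groups were compared with lmFit and eBayes, two-sided, with Benjamini-Hochberg adjustment over 18626 kept probes. A call needed an adjusted p under 0.05 and the fold threshold of the study's methods, which removed no call. A gene was called when at least 1 probe was. The procedure was run on simulated data with independent noise on each array. Those data held no shared litters and no outlying array, so the run does not bear on either. The number of arrays limits the precision.

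The members and lists were chosen with earlier results of these data known. A gene is given by its kept probe of highest mean. Members called, or at an unadjusted p under 0.05, are given in full, others by range and counts, and of other lists the called genes by name. Angpt1, Pdgfrb, Mmrn2 and Fos, and the full values of other members, were chosen after values were seen. Exact permutation tests ran over all splits. Alternatives were background, offset, the authors' table, filters, variance model, array weights, probe averaging, fold threshold, replicate block and each array left out.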

Additional observations from a re-analysis of the deposited data

Results flagged for a closer look

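In 60 sets of array values (30 genes in each of 2 groups), 2 held an array far from the rest by Dixon's ratio, the gap to the nearest array over the whole range, where chance flags about 1 in 20, or 3 sets. Ramp2 was low on pregnant replicate 1, at 8.97 against 9.65 to 9.98 on the other pregnant arrays, a ratio of 0.677, past the 95% critical value for 8 arrays. Pdgfa was low on non-pregnant replicate 4, at 8.47 against 8.78 to 8.82 on the other non-pregnant arrays, a ratio of 0.874, past that for 4.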

How the results depend on the processing

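The count of genes called higher was 0 under every alternative run. The 29 uncalled measured genes gave 0 calls in 606 values over 21 of the alternatives. Those values are of each gene's brightest probe, or of the mean of its probes where probes were averaged. The count called lower stayed at 1, Vegfd, except with no detection filter, when it was 2 (Pgf, detected on 0 arrays, joined Vegfd), and with the replicate block, when it was 0. The replicate number as a block took the log2 change of Vegfd to -0.70 (adjusted p = 0.128, limma) and the probes called over the array to 127, against 431. Pregnant arrays without a non-pregnant array of the same number add nothing to that contrast, so it rested on fewer arrays. Same-numbered arrays deviated together with correlations of 0.163, 0.0603, 0.0145 and 0.203, and only non-pregnant replicate 4 correlated best with its own number, so the numbers were not taken to pair the animals. Array weights gave 1576 probes. In the other fits on all arrays the Vegfd change was -0.91 to -0.55 and stayed called. With each array left out it was -0.997 to -0.71 and stayed called, the counts called higher and lower were at 0 and 1, and probes called ran from 148 (without non-pregnant replicate 3) to 1133 (without non-pregnant replicate 4), with 183 without non-pregnant replicate 1 and 283 without pregnant replicate 7. The cause of these shifts was not tested. The chip of each array is not in the column names used here, so chip as a block was not run. Kdr, Tie1 and Flt4 were not above background on all arrays, which limits their values.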
